A study of Arabidopsis thaliana with 60 samples.

Results

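The chemicals 2,4,6T and PCIB, each given at 10 µM for 3 h, were compared directly with each other in whole Arabidopsis thaliana seedlings. The comparison was defined by its labels alone: the 2 arrays of 2,4,6T and the 2 arrays of PCIB of bracket F1, matched by replicate number, 4 of the 60 arrays of the series, with no mock array entering the difference. All groups used here were wild-type Col-0 seedlings grown for 7 days, with no transgene named in the labels, and differed in the chemical named on the label. Chemicals in bracket F1 were given at 10 µM except PNO8, at 1 µM. The series holds 30 groups of 2 Affymetrix ATH1 arrays, treated with hormone inhibitors or other chemicals or with a mock. Nothing in the labels tells whether the replicates were grown as separate cultures, so the p-values may reflect no more than technical variation among the arrays.

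PCIB is p-chlorophenoxyisobutyric acid, an acid long used as an anti-auxin, a compound that opposes auxin responses in roots. The labels do not spell out 2,4,6T, so no structural difference between the compounds is named here. Auxin controls root growth and root hair elongation, and plant cells answer many foreign acids with conjugating enzymes, among them glutathione transferases and glycosyltransferases. Root hairs are long outgrowths of root epidermal cells whose walls are extended by expansins and stiffened by extensins, with class III peroxidases acting on wall polymers in the space outside the cell.

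Values are deposited probe set intensities, and differences are 2,4,6T minus PCIB on the log2(intensity + 133.4) scale, so the change of dim probe sets is understated. A probe set was called where its adjusted p in a limma fit with the replicate number as a block was under 0.05. Of 22746 probe sets other than controls, 17301 passed the filter on low intensity and were tested. By this rule 27 probe sets were higher and 44 lower with 2,4,6T than with PCIB, 0.156% and 0.254% of the 17301 tested, or 0.41% together. An unadjusted p under 0.05 was reached by 1078 (6.23%), 492 higher (2.84%) and 586 lower (3.39%). Without the block limma called 5 higher (0.0289%) and 7 lower (0.0405%), or 0.0694% together, and 392 had an unadjusted p under 0.05 (2.27%). The median difference over all probe sets was -0.01. The named genes called without the block as well were AT1G72800, AT4G01870, AT1G30700, AT1G59660, AT5G03350, AT1G34510, AT1G30870 and EXPA18, and every other named call was lost without it. In all, 34 of the 71 called probe sets named exactly 1 gene, 17 in each direction, and the other 37 did not. Their differences ran from 0.71 to 1.90 log2 units on the higher side and 0.67 to 2.00 on the lower side, with 14 of 27 and 34 of 44 beyond 1 log2 unit. Below, a list member is measured where a tested probe set named it alone, and errors are SE with n = 2 arrays per compound. Where the arrays of the compounds are said not to overlap, the gene was called from those same arrays. The share of all probe sets without overlap was not counted, so this describes the values and adds no support to a call.

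**Figure D1:**
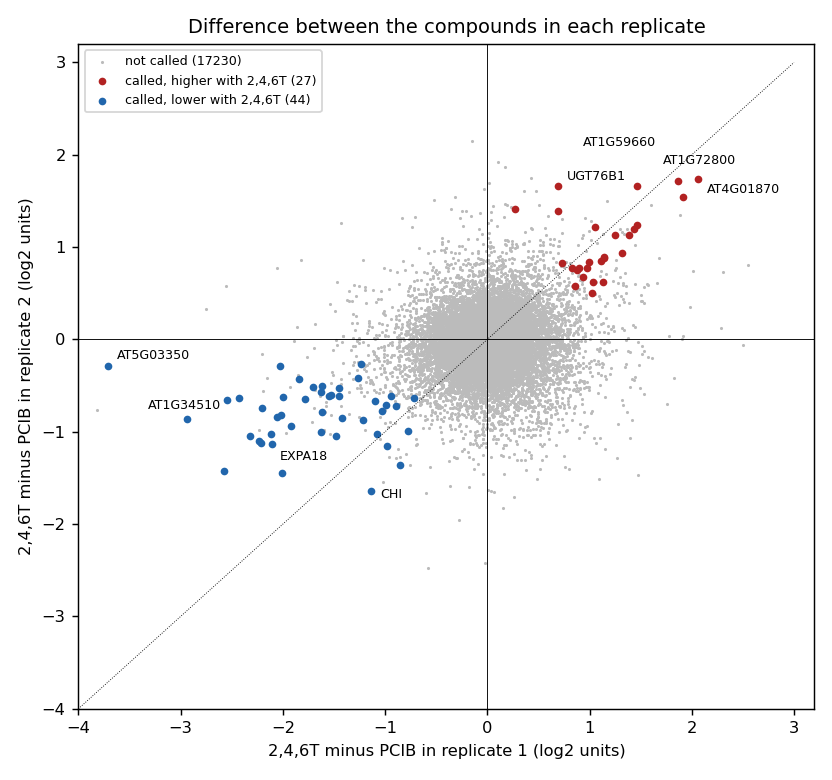
Difference between 2,4,6T and PCIB (log2 units) in replicate 1 on the horizontal axis and in replicate 2 on the vertical axis, 1 point per probe set, with the 27 probe sets called higher in red and the 44 called lower in blue. The dotted line marks equal differences, and most blue points lie farther from 0 along replicate 1 than along replicate 2.

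All 71 called probe sets differed in the same direction in both replicates. A call rests on the mean of the differences in both replicates, so this is no separate support for the calls. Over all probe sets 28.5% were below 0 in both and 25.1% above 0 in both, so 53.5% had the same sign in both, and the differences of replicates 1 and 2 correlated with r = 0.124 across 17301 probe sets that share their arrays and are not independent of each other. For the called lower probe sets the median difference was -1.62 in replicate 1 and -0.76 in replicate 2, and 40 of 44 were larger in size in replicate 1. The called higher probe sets had medians of 1.05 and 0.89, with 21 of 27 larger in replicate 1.

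The array of 2,4,6T replicate 1 carried much of the count. Leaving it out left 4 calls, which were AT1G72800, OCT5 and AT5G49220 on the higher side and CHI on the lower side. Leaving out replicate 2 of 2,4,6T gave 107 calls, replicate 1 of PCIB 13 and replicate 2 of PCIB 32. On 1 of the chip's actin control sets the signal of the 3′ end over the 5′ end, which rises as RNA degrades, also stood apart on this array. It was 10.3 for 2,4,6T replicate 1, the highest of 60 arrays (median 2.99), 6.44 for PCIB replicate 1, 2.16 for 2,4,6T replicate 2 and 2.03 for PCIB replicate 2. On the other actin set the same arrays stood at 1.65, 1.57, 1.48 and 1.36, within the 1.22 to 1.89 of the series, and the GAPDH ratios lay between 0.585 and 0.984. The part of RNA quality in the differences was not tested.

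The expansin genes EXPA18 and EXPA7 were lower with 2,4,6T than with PCIB. EXPA18, a root hair expansin, had intensities of 496 and 1133 with 2,4,6T against 2574 and 2639 with PCIB in replicates 1 and 2. Both 2,4,6T arrays lay below both PCIB arrays, and the fold was 3.07 (-1.62 ± 0.29, n = 2, limma adjusted p = 0.00339). EXPA7, the other expansin of growing root hairs, stood at 602 and 928 against 2022 and 1493 (-1.08 ± 0.26, limma adjusted p = 0.0491; 0.503 without the block). These were the only measured members of a list of 38 root hair genes, so 2 of 2 were lower, beside 0.254% of all probe sets, and nothing can be said of the other members. Without 2,4,6T replicate 1 neither was called, at -0.96 (adjusted p = 0.677) for EXPA18 and -0.68 for EXPA7. In the whole seedling, fewer root hair cells and less RNA per cell cannot be told apart.

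Of 23 measured expansins and xyloglucan endotransglucosylases, which cut and rejoin xyloglucan in growing walls, 2 were called lower (EXPA18 and EXPA7), 0 higher and 21 not called, with a median of -0.27 against -0.01 over all probe sets, of which 0.254% were called lower. Unadjusted p under 0.05 was reached by 6 lower members and 1 higher one, beside 3.39% and 2.84% of all probe sets. XTH26, a xyloglucan endotransglucosylase, had 554 and 526 against 1504 and 1047 (-1.05 ± 0.26) and just missed the threshold (adjusted p = 0.052). XTH18 stood at -1.18 ± 0.32 (adjusted p = 0.121). XTH33 stood at 0.85 ± 0.34 (adjusted p = 0.58), with the PCIB arrays at 473 and 31.4.

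Class III peroxidases held 5 of the 17 named genes called lower. AT1G34510 had 356 and 1259 with 2,4,6T and 3611 and 2404 with PCIB, a 3.73-fold difference (-1.90 ± 0.35, limma adjusted p = 0.00339). For AT1G30870 the intensities were 1797 and 3356 against 9497 and 7074 (-1.68 ± 0.28, limma adjusted p = 0.00146). AT4G26010 had 2564 and 5947 against 15658 and 9444 (-1.60 ± 0.27, limma adjusted p = 0.00224). In each of these 3 genes the compounds' arrays did not overlap, and 2,4,6T replicate 1 was the lowest of the 4. AT5G17820 (-1.06 ± 0.24, limma adjusted p = 0.0314) and AT2G37130 (-0.90 ± 0.21, 0.0343) were called lower as well. AT4G26010 (adjusted p = 0.0507), AT5G17820 and AT2G37130 were not called without the block. Without 2,4,6T replicate 1 none of the 5 was called, with AT1G34510 at -0.88 (adjusted p = 0.81), AT1G30870 at -1.04 (0.503) and AT4G26010 at -0.84 (0.648). Without PCIB replicate 1 only AT1G30870 was called, and without PCIB replicate 2 these 3 were.

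Of 45 measured peroxidases 5 were called lower, 0 higher and 40 not called, a share to be read beside the 0.254% of all probe sets called lower. The full family was entered by locus after values had been seen, so its shares are a description. The median was -0.11, with 27 members below 0 and 18 above, and 20 were below 0 in both replicates and 6 above 0 in both (28.5% and 25.1% of all probe sets). At unadjusted p under 0.05 there were 10 lower and 1 higher, beside 3.39% and 2.84% of all probe sets. AT3G49960 stood at -1.29 ± 0.36 (adjusted p = 0.154), AT5G64120 at -0.59 ± 0.19 (0.325) and Prx37 at 0.80 ± 0.28 (0.442).

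Extensins and proline-rich proteins, hydroxyproline-rich structural proteins of the wall, lay below 0 in 7 of 7 measured members, in both replicates. Their share is to be read beside the 28.5% of all probe sets below 0 in both. They were entered by locus as a full family after values had been seen, so their shares are a description. Their median difference was -1.12, from -1.60 to -0.74, and all 7 had an unadjusted p under 0.05, beside 3.39% of all probe sets on the lower side. Only HRGP1 (-1.20 ± 0.25, limma adjusted p = 0.0107) and AT5G06630 (-0.99 ± 0.24, 0.0444) were called; without the block 0 were. HRGP1 had 8475 and 13541 with 2,4,6T against 26251 and 23428 with PCIB. AT5G06630 had 8692 and 12405 against 24025 and 17926, so the arrays of the compounds did not overlap for either gene. AT3G28550 (-1.60 ± 0.46, adjusted p = 0.18) and AT3G54580 (-1.49 ± 0.41, 0.148) had larger differences and larger errors. Extensin genes are repetitive and alike, and HRGP1, AT5G06630, AT4G08410 and AT1G23720 are read by probe sets marked as cross-hybridising, so their signals may be shared. Neither HRGP1 (-0.73, adjusted p = 0.873) nor AT5G06630 (-0.56) was called without 2,4,6T replicate 1, nor without either PCIB array.

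GH9C1, AT5G04960, AT4G33730 and AT4G15390, outside these families, were also called lower with the block and not without it. GH9C1, a family 9 glycosyl hydrolase, had 916 and 1174 against 2790 and 2569 (-1.26 ± 0.25, limma adjusted p = 0.00898). AT5G04960, of the pectin methylesterase family, had 841 and 1680.0 against 3754 and 2660.4 (-1.31 ± 0.26, limma adjusted p = 0.00718). AT4G33730, which encodes a secreted CAP-superfamily protein like PR-1, stood at -1.14 ± 0.27 (adjusted p = 0.0433) and the acyltransferase gene AT4G15390 at -1.03 ± 0.24 (0.0342). The arrays of the compounds did not overlap for GH9C1, AT5G04960, AT4G33730 or AT4G15390, which were called from those same arrays. Without 2,4,6T replicate 1 the 4 stood between -0.90 and -0.62 and none was called.

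**Figure D2:**
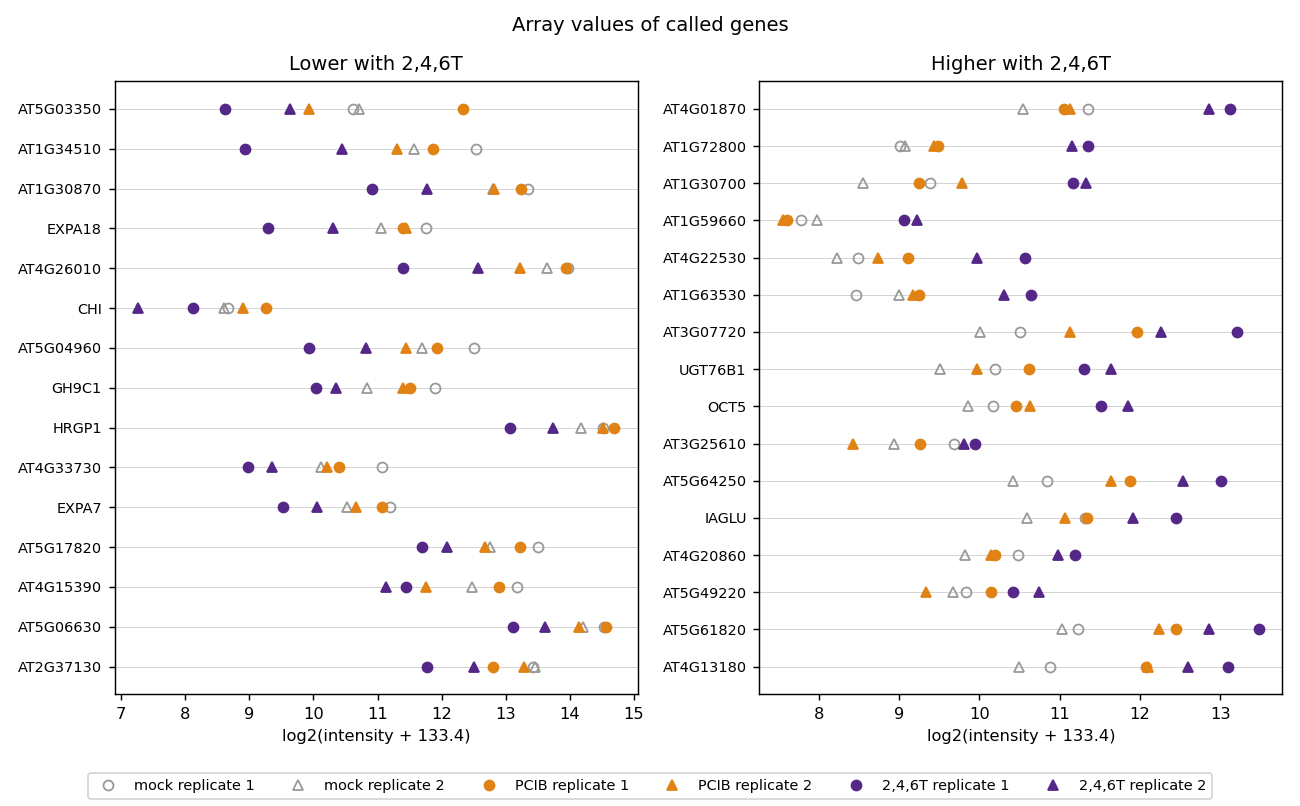
Values of 31 named called genes on each array, as log2(intensity + 133.4), with 2,4,6T in purple, PCIB in orange and the mock in open grey symbols; circles are replicate 1 and triangles replicate 2. For genes on the left the purple symbols lie to the left of the orange ones, and for genes on the right they lie to the right.

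AT5G03350 and CHI, the 2 defence-linked genes called lower, had different array patterns. AT5G03350 encodes a legume-type lectin known to respond to salicylic acid. It had 261 and 661 with 2,4,6T and 5016 and 838 with PCIB, so that PCIB replicate 1 stood far above the other 3 arrays. The difference was -3.71 in replicate 1 and -0.29 in replicate 2, and the fit gave -2.00 ± 0.47 (limma adjusted p = 0.0343). Without PCIB replicate 1 it was -0.73 (adjusted p = 0.823), and without 2,4,6T replicate 1 it was -1.47 (0.875). CHI, here AT2G43570 and named a putative chitinase in the gene table, had 145 and 20.7 against 478 and 346. Its difference was -1.13 in replicate 1 and -1.64 in replicate 2 (-1.39 ± 0.27, limma adjusted p = 0.00718), and the fold understates the change because 1 array is far under the pseudocount. CHI was not called without the block (adjusted p = 0.069), and without 2,4,6T replicate 2 it was at -0.99 (adjusted p = 0.227). Of 29 genes in the list of salicylate-linked defence genes 4 were measured. Among these 4, 1 was called lower (AT5G03350) and 1 higher (UGT76B1), beside 0.254% and 0.156% of all probe sets.

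On the higher side the smallest p belonged to AT1G72800, a gene of the family of TIR domain immune proteins. It had 2480.3 and 2150.2 with 2,4,6T and 586 and 559 with PCIB, a 3.46-fold difference of nearly equal size in both replicates (1.86 and 1.72). The fit gave 1.79 ± 0.22 (limma adjusted p = 2.2e-05; 0.00324 without the block). It was the only probe set called with each of the 4 arrays left out in turn, where its difference ranged from 1.75 to 1.84 and its adjusted p from 0.000111 to 0.00474. Its list of disease resistance relatives holds 20 genes, of which 5 were measured. AT1G72800 was the only one of the 5 called, beside 0.156% of all probe sets called higher. AT1G72900, AT1G72920 and AT1G72940, of similar locus number, stood at 0.35, -0.11 and 0.21.

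AT4G01870, a TolB-related gene, had the largest difference called higher: 8769 and 7319 with 2,4,6T against 2003 and 2101 with PCIB (1.90 ± 0.41, limma adjusted p = 0.0203). AT1G59660, which encodes a nucleoporin-like protein, had 403 and 462 against 60.7 and 54.6 (1.56 ± 0.31, 0.00718), with PCIB at low intensity. In both genes the 2,4,6T arrays lay well above the PCIB arrays in each replicate. With each array left out in turn AT4G01870 stood between 1.74 and 2.05 and AT1G59660 between 1.42 and 1.71. AT1G59660 was called in none of these fits, and AT4G01870 only without 2,4,6T replicate 2.

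Berberine bridge enzyme-like genes encode FAD-linked oxidases of the cell exterior, some of which oxidise oligosaccharides released from the wall. AT1G30700 had 2156 and 2428 with 2,4,6T against 473 and 744 with PCIB (1.73 ± 0.31, limma adjusted p = 0.00339). AT4G20860 had 2211 and 1883 against 1039.7 and 994 (0.92 ± 0.17, 0.00339; 0.503 without the block). These 2 of 14 measured members were called higher, beside 0.156% of all probe sets, 0 were lower, and the list's median was -0.10. The full family was entered by locus after values had been seen, so this share is a description. Among the others AT4G20830 stood at 0.51 ± 0.23 (adjusted p = 0.737) and AT5G44440 at -0.50 ± 0.29 (0.903). Without 2,4,6T replicate 1 AT1G30700 stood at 1.84 (adjusted p = 0.102) and AT4G20860 at 0.92 (0.133), and without PCIB replicate 1 they stood at 1.42 (0.168) and 0.83 (0.12).

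UGT76B1 and IAGLU, both glycosyltransferase genes, were called higher with the block and not without it. UGT76B1, a glycosyltransferase of isoleucic acid and salicylic acid in defence, had 2402 and 3046 against 1439.6 and 869.6 (1.18 ± 0.27, limma adjusted p = 0.0299). IAGLU, an indole-3-acetate beta-D-glucosyltransferase, had 5470.0 and 3728 with 2,4,6T and 2452 and 2010.1 with PCIB, a 1.98-fold difference (0.98 ± 0.18, limma adjusted p = 0.00397). Both 2,4,6T arrays of each gene lay above both PCIB arrays. IAGLU was called without 2,4,6T replicate 2 and in no other fit with an array left out, where it stood between 0.84 and 0.98, and UGT76B1 in none of the 4 (0.90 to 1.45). Of 39 measured UDP-glycosyltransferases in a list matched on their symbols, which does not hold IAGLU, UGT76B1 alone was called. Of all probe sets 0.156% were called higher. In this list 7 higher and 1 lower had an unadjusted p under 0.05, beside 2.84% and 3.39% of all probe sets, and the median was 0.08. UGT74D1 missed the threshold at 0.66 ± 0.16 (adjusted p = 0.054). UGT73B4, a stress glycosyltransferase, stood at 1.22 ± 0.42 (adjusted p = 0.411), with a difference of 2.50 in replicate 1 and -0.06 in replicate 2.

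Transporters and reductase-like genes were among the other calls. OCT5, an organic cation/carnitine transporter, had 2795 and 3556 against 1277 and 1456 (1.13 ± 0.19, limma adjusted p = 0.00146). AT3G25610, a phospholipid-transporting ATPase, had 855 and 766 against 479.7 and 209.8 (1.04 ± 0.23, limma adjusted p = 0.0299). AT4G13180, a short-chain reductase-like gene, had 8628 and 6086 against 4176 and 4245 (0.76 ± 0.18, limma adjusted p = 0.04). The arrays of the compounds did not overlap for any of these 3, and none of the 3 was called without the block (0.185 for OCT5). With arrays left out OCT5 was called in all but 1 of the 4 fits (without PCIB replicate 1, 0.97, adjusted p = 0.0863), while AT3G25610 and AT4G13180 were called in 1 each. AT4G13180 was 1 of 2 measured members of the list of reductase-like genes, and the other was not called. Of all probe sets 0.156% were called higher.

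The naming rule took 6 more genes on this side, none of them called without the block. These were AT3G07720, a kelch-repeat gene (1.19 ± 0.26, limma adjusted p = 0.0181), AT4G22530, a methyltransferase-like gene (1.35 ± 0.30, 0.0262), AT5G64250, nitropropane dioxygenase-like (1.02 ± 0.24, 0.0405), AT5G61820, related to a stress-induced nodulin (0.82 ± 0.17, 0.0153), AT1G63530 (1.26 ± 0.24, 0.0065) and AT5G49220 (0.84 ± 0.18, 0.0225). AT5G49220 had 1235 and 1579 against 998 and 512, and its difference rested more on replicate 2 (1.41) than on replicate 1 (0.27). It was not called without 2,4,6T replicate 2 (0.53, adjusted p = 0.424) or PCIB replicate 2 (0.55, 0.726), and the other 5 were not called without 2,4,6T replicate 1. Of the 34 called genes, 3 fell outside the rule and are given after their values were seen: XPO1B, an exportin gene (0.81 ± 0.18, limma adjusted p = 0.0299), AT2G34910 (-0.80 ± 0.18, 0.0299) and AT5G44020 (-0.67 ± 0.16, 0.0343).

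Glutathione transferases conjugate glutathione to reactive and foreign compounds. Of 9 measured, from a list of 51, 0 were called, beside 0.41% of all probe sets, and the median was -0.00087. At unadjusted p under 0.05 there were 1 higher and 1 lower, beside 2.84% and 3.39% of all probe sets. GSTU25 had 6670.5 and 5427 with 2,4,6T against 1027 and 3058 with PCIB. This 1.68 ± 0.42 (95% interval 0.82 to 2.54) missed the threshold at adjusted p = 0.0685, with 2.55 in replicate 1 and 0.80 in replicate 2. GSTU22 had 3543 and 2191 against 2055 and 2093 (0.41, interval -0.16 to 0.97, adjusted p = 0.939). GSTU26 stood at -0.76 ± 0.25 (adjusted p = 0.367). The intervals of GSTU25 and GSTU26 leave out 0 and that of GSTU22 does not, but none of the 3 passed the correction.

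None of the measured genes in the auxin lists was called between the compounds, and most members of these lists were not measured. Measured were 11 of 40 Aux/IAA and GH3 genes, 4 of 23 auxin carriers and auxin-induced regulators and 0 of 80 SAUR genes. Of 11 measured Aux/IAA and GH3 genes, which encode early auxin-induced repressors and auxin-conjugating enzymes, 0 were called, with a median of 0.03. As only 0.41% of all probe sets were called, 0 calls among 11 genes tells little. At unadjusted p under 0.05 there were 2 higher and 0 lower, beside 2.84% and 3.39% of all probe sets. GH3.3 had 4395 and 2938 with 2,4,6T against 2386 and 1947 with PCIB (0.70, interval 0.02 to 1.39, adjusted p = 0.778). IAA20 had 348 and 214 against 44.0 and 37.0 (1.23 ± 0.44, interval 0.34 to 2.13, adjusted p = 0.449). WES1, a GH3 enzyme, stood at 0.18 ± 0.16. Of 4 auxin carriers and auxin-induced regulators 0 were called, and LBD29 (0.61 ± 0.41) and HAT2 (-0.51 ± 0.32) had adjusted p = 0.93 and 0.915. The lack of a call does not show that these auxin genes respond alike to the compounds. The intervals of GH3.3, IAA20, LBD29 and HAT2 reach beyond 1 log2 unit in size, while that of WES1 ran from -0.14 to 0.50.

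**Figure D3:**
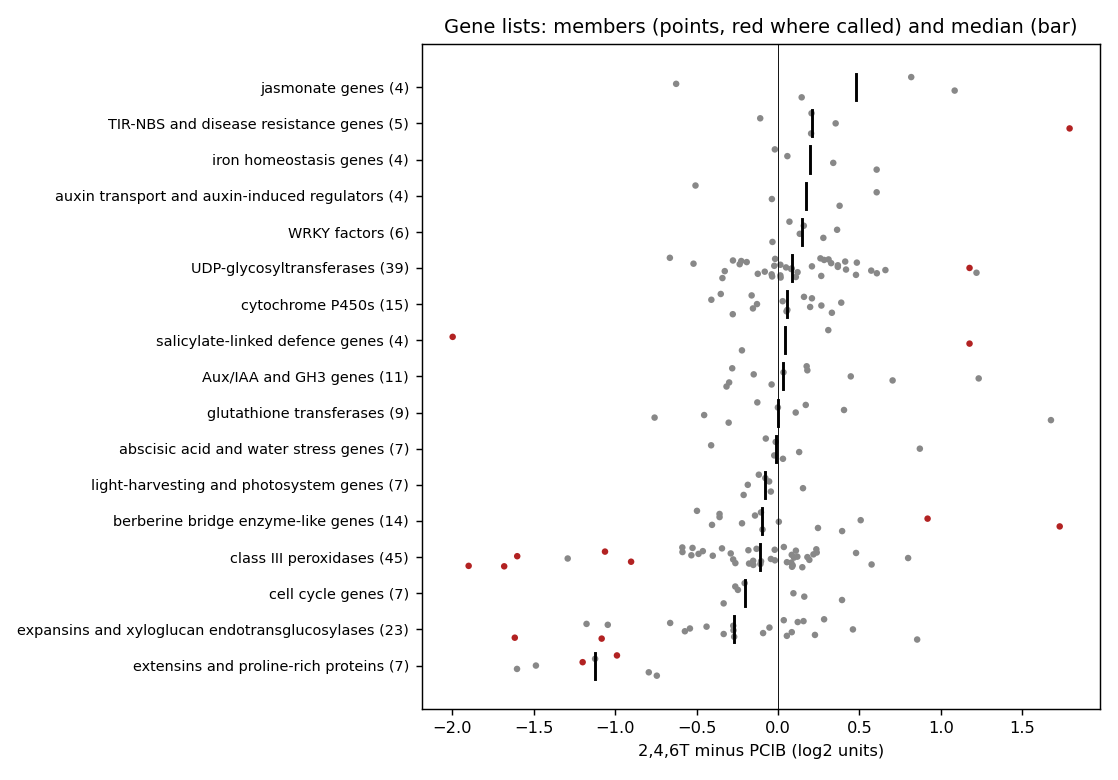
Differences between 2,4,6T and PCIB (log2 units) for the measured members of gene lists with at least 4 of them, with the number in brackets; points are genes, red where called, and the black bar is the list's median. Extensins lie at the lower end with a median of -1.12, while the medians of glutathione transferases and of Aux/IAA and GH3 genes lie close to 0.

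In the other 12 lists with a measured member limma with the block called 0 genes, beside 0.41% of all probe sets. Unadjusted p under 0.05 was reached by 1 higher gene each in the ethylene, iron and abscisic acid lists, beside 2.84% of all probe sets. Among 4 jasmonate genes PDF1.2b (1.09 ± 0.73, adjusted p = 0.929) and PDF1.2 (0.82 ± 0.57, 0.939) had the largest differences. Among 7 abscisic acid and water stress genes LTI30, a dehydrin, stood at 0.87 ± 0.23 (adjusted p = 0.092) and AT4G38410, also dehydrin-related, at -0.41 ± 0.25 (0.915). The iron-deficiency peptide gene AT1G47400 stood at 0.61 ± 0.28 (adjusted p = 0.758) among 4 iron genes. WRKY47 (0.36 ± 0.18) and ZAP1 (0.28 ± 0.15) led 6 WRKY factors, and CYP71B35 (-0.41 ± 0.27) and CYP71B26 (0.39 ± 0.26) led 15 cytochrome P450s. ARL (0.42 ± 0.20) led 3 ethylene genes, CHIL (0.29 ± 0.19) 2 flavonoid genes and AUR2 (0.39 ± 0.23) 7 cell cycle genes. CCR2 (-0.33 ± 0.34) led the 2 measured genes of the clock list. It is here AT1G80820, a cinnamoyl-CoA reductase gene and not the clock-regulated gene of that symbol, so it tells nothing of the clock. ARR15, the only measured cytokinin gene, stood at -0.09 ± 0.30. MATE and ABC transporters, SAUR genes, heat shock genes and cytosolic ribosomal proteins had 0 members measured with a single gene name.

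Light-harvesting and photosystem genes, which mark the green shoot, had high intensity on all 4 arrays. PSBY had 28711 and 24852 against 30809 and 31086 (-0.21 ± 0.20), and LHCB4.2 had 28122 and 23654 against 29064 and 29651 (-0.19 ± 0.20). Of 7 members 0 were called, and the differences ran from -0.21 to 0.15. Seed storage genes were dim, with PAP85 between 178 and 304 on the 4 arrays. The share of root RNA in the seedlings was not tested.

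The mock of the bracket, which did not enter the comparison, lay nearer to PCIB than to 2,4,6T in all 71 called probe sets. It lay below both compounds in 24 of the 27 called higher and between them in 3. The median distance from the mock was 1.62 for 2,4,6T and 0.46 for PCIB on the higher side, and -1.40 and -0.11 on the lower side. For the 44 called lower it lay above both compounds in 26 and between them in 18. These 2 distances share the mock arrays, and they are given as a description with no test. The 71 were picked for a difference between the compounds. The position of the mock was not counted over all probe sets, so these counts have no background share.

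Genes differed in how far PCIB itself stood from the mock. EXPA18 stood at -1.60 from the mock with 2,4,6T and at 0.02 with PCIB, and AT1G30870 at -1.73 and -0.05. AT4G13180 stood at 2.16 and 1.40, AT5G61820 at 2.03 and 1.21, and AT5G64250 at 2.14 and 1.13. AT4G01870 had 2.04 with 2,4,6T and 0.14 with PCIB, and AT4G20860 0.93 and 0.01. AT5G03350 and CHI stood on either side of the mock, at -1.54 and 0.46 and at -0.95 and 0.44, as did AT3G25610 at 0.57 and -0.47. The PCIB side of AT5G03350 comes from 1 array, given above.

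**Figure D4:**
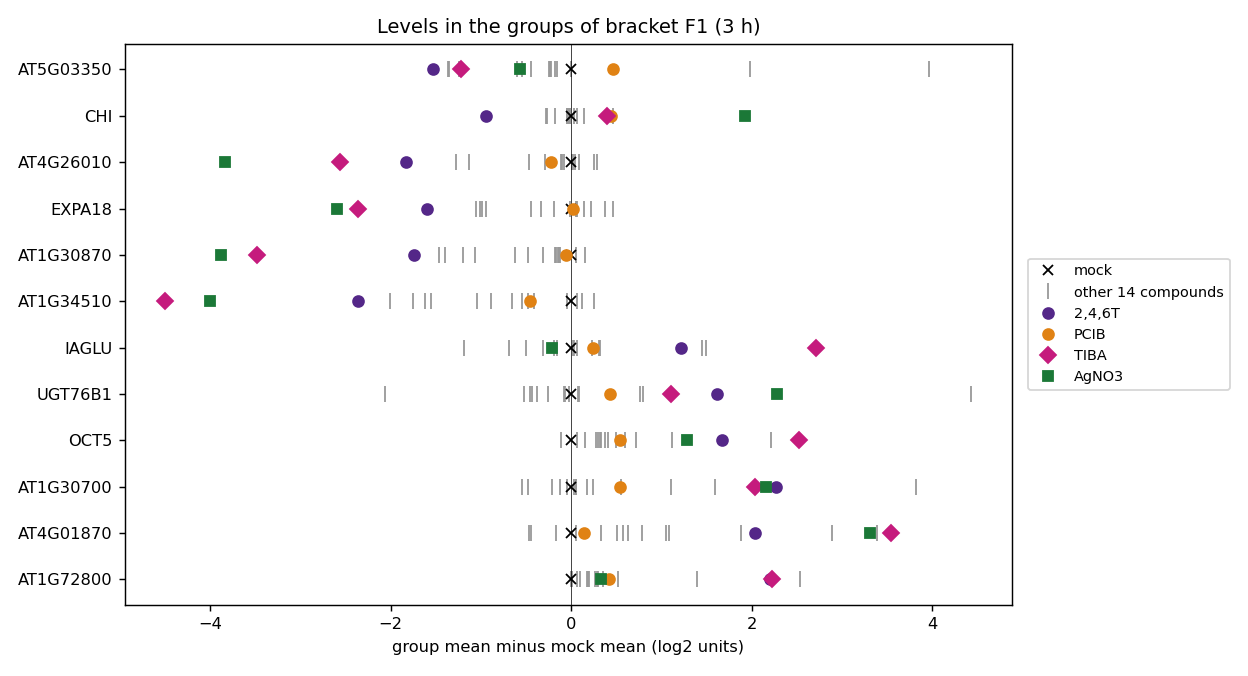
Group means of 12 called genes in the 19 groups of bracket F1 at 3 h, as the difference from the mock mean (log2 units), with 2,4,6T in purple, PCIB in orange, TIBA as pink diamonds, AgNO3 as green squares and the other 14 treated groups as grey ticks. PCIB lies close to the mock for most of the genes, and for AT4G26010, EXPA18, AT1G30870 and AT1G34510 AgNO3 and TIBA lie below 2,4,6T.

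The means of the 19 groups of bracket F1, all treated for 3 h, were ranked in each called probe set. 2,4,6T had the highest mean of the 19 in 3 of the 27 probe sets called higher, where TIBA had it in 12 and CHX in 7. The median rank there was 3 for 2,4,6T and 8 for PCIB, counted from the highest. 2,4,6T had the lowest mean in 4 of the 44 called lower, where AgNO3 had it in 36, and the median rank was 17 for 2,4,6T and 6.5 for PCIB. AT3G07720 was highest with 2,4,6T, and AT5G03350 and CHI were lowest with it. AT5G49220 and AT3G25610 were lowest of the 19 with PCIB. EXPA18, EXPA7, AT1G30870, AT4G26010 and AT1G34510 ranked 17 with 2,4,6T and between 4 and 12 with PCIB. These ranks describe genes that were called from 2 of the 19 groups, and no test was made of them. The same ranks were not counted over all probe sets.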

How the data were processed

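The authors deposited 1 table of linear MAS5 intensity values per probe set for 60 arrays, per the submitters' processing notes; no version or scaling target is stated there. For both compounds the 2% trimmed mean was 1514 or 1515 in replicate 1 and 1211 in replicate 2, so each replicate number had its own scale. Of 22810 probe sets 64 controls were left out. The log2 of the intensity plus 133.4 was used, where 133.4 is the median of the arrays' 20th percentiles. A probe set was tested (17301 were) if 2 or more arrays put it higher than their own 40th percentile. The model, fitted with limma 3.58.1 (R 4.3.3) on the 60 arrays, had a term for each group, a block for each replicate number within a bracket, a trend of the variance with intensity and 27 residual degrees of freedom, with Benjamini-Hochberg adjustment. All tests were two-sided, and the error given is the SE of the fit.

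The pairing comes from the definition of the comparison and from the shared scale. The difference between replicate 2 and replicate 1 correlated with r = 0.303 between the compounds over probe sets (0.284 after rescaling), and between -0.0943 and 0.31 over 171 pairs of F1 groups. The 95% interval extended by a median of 0.42 log2 units on each side of the difference with the block and 0.63 without; the number of arrays limits the precision.

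Tested on simulated data for this comparison with 17301 probe sets, the fit with the block found 72% of the changes of 1 log2 unit and 100% of those of 2 log2 units, and 4 of its 176 calls were false. Without the block these shares were 20% and 99%, with 0 false calls. These shares and false calls describe the simulated data only. Whether they hold for the real arrays, where leaving out 1 array cut the calls from 71 to 4, was not tested. They do not tell how many of the 71 calls are false or which fit is right for these arrays.

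Gene names came from an old platform table: 1 gene was given for 13513 probe sets, several for 503 and none for 8730, and 13436 matched the TAIR10.1 gene table. Of the tested probe sets 9601 named 1 gene. The brightest probe set stood for a gene in the 28 lists. Genes named are the 15 highest and 15 lowest called genes with the same sign in both replicates, called list members, the 2 members of largest difference in each list, 9 genes known from earlier results, and the 2 largest unnamed probe sets in each direction; other list members named beside them were chosen after their values were seen, and the unnamed probe sets and 7 uncalled list members that the rule picks are not described in the results. The comparison, lists and naming rule were chosen with earlier results of these data known, and the full peroxidase, berberine bridge enzyme-like and extensin families were entered by locus after values had been seen. Promoter motifs were not analysed here.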

Additional observations from a re-analysis of the deposited data

How the results depend on the processing

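Every called gene named in the text kept its direction under all alternatives. GI (-0.10 to 0.21) and PAP85 (-0.22 to 0.42) changed sign without PCIB replicate 1 and ARR15 (-0.46 to 0.28) without PCIB replicate 2, the ranges being those with an array left out, and none of the 3 was called. Without the replicate block limma called 12 probe sets (5 higher, 7 lower), all among the 71, with a median residual SD of 0.312 against 0.209 with it. Rescaling each array to a common trimmed mean, without the block, gave 45 (17 and 28). With only the 38 arrays of bracket F1 there were 30 (13 and 17), and without the intensity trend 43 (18 and 25). With only the 4 arrays, which leave 1 residual degree of freedom, there were 96 (46 higher, 50 lower), of which 57 were among the 71. Quantile normalization gave 75, a pseudocount of 16 gave 58, none 54, no filter 59 and a filter at the 60th percentile 80. The share of calls on the higher side, 38% with the block, was 47.5% without a filter and 47.9% with the 4 arrays. Leaving out each array in turn gave 4 to 107 calls, 3 to 29 higher and 1 to 78 lower. Called peroxidases fell from 5 to 2 without the block and to 3 with F1 arrays alone or without the trend, and ranged from 0 to 5 with an array left out. Called extensins went from 2 to 0 without the block or with F1 arrays alone, to 6 with the 4 arrays, and to 1 after rescaling, with either other pseudocount, without a filter or without the trend; they ranged from 0 to 4 with an array left out. Called expansins and xyloglucan endotransglucosylases went from 2 to 1 without the block, with F1 arrays alone, after rescaling, with either other pseudocount, without a filter or without the trend, and ranged from 0 to 3 with an array left out. The berberine bridge enzyme-like genes went from 2 to 1 without the block and ranged from 0 to 2 with an array left out. The cause of these changes was not tested. Dim probe sets, such as AT1G59660 with PCIB, lie under the pseudocount.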
